A study of Mus musculus with 6 samples.

Results

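Heat shock chaperones are the proteins that fold newly made polypeptides and hold or refold damaged ones. The 10 genes described here were chosen by symbol: Hspa1a, Hspa1b, Hspa8, Hsp90aa1, Hsp90ab1, Hsph1, Hspb1, Dnajb1, Hspd1 and Hspe1. All 10 were found by Ensembl identifier among the 29275 genes of the study, and all 10 passed the filter on low values that left 12284 genes for testing. The study sequenced RNA of primary mouse Sertoli cells, the somatic nurse cells of the seminiferous tubule, kept at 34 °C in DMEM/F12 medium with serum, antibiotics and EGF, for both genotypes. It compared 3 libraries labelled Arhgef15 cKO, whose Sertoli cells are said to carry a conditional knockout of that gene, with 3 libraries of untreated wild-type (WT) cells. The labels name no mouse strain, age, Cre driver or deleted exon, and do not say whether animals were pooled. The titles call the libraries biological replicates 1 to 3 of each genotype.

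As background, the chaperones work in systems. HSP70 proteins bind exposed hydrophobic stretches and release them in a cycle driven by ATP, a J-domain protein such as DNAJB1 starts that cycle, and a nucleotide exchange factor such as HSPH1 ends it. HSP90 proteins take over late folding steps of kinases and steroid hormone receptors, small heat shock proteins such as HSPB1 hold unfolding proteins without ATP, and HSPD1 with its lid HSPE1 folds proteins inside mitochondria. Under proteotoxic stress, heat shock factor 1 binds heat shock elements in DNA, which are inverted repeats of short GAA and TTC blocks, and switches on the inducible members. In the testis, cells work below body temperature, and germ cells also express chaperones of their own.

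The libraries set limits on every comparison. Arhgef15 was at 0.501, 0.322 and 0.338 FPKM (fragments scaled to gene length and library depth) in the libraries labelled cKO 1, 2 and 3, and at 0.123, 0.0237 and 0.349 FPKM in WT 1, 2 and 3. The targeted gene was thus not lower in the libraries labelled cKO (limma fitted over all 29275 genes, Benjamini-Hochberg adjusted p = 0.903). Depth, read from the step between neighbouring values, was 16790000 to 20090000 fragments in cKO and 18750000 to 20320000 in WT libraries. WT 3 stood apart from the other WT libraries. The summed level of 16 Sertoli cell markers was 633 to 938 FPKM in the cKO libraries and 280.2, 266 and 907 FPKM in WT 1, 2 and 3. Clu was the largest part of the Sertoli sum. It was at 335 to 452 FPKM in cKO and 107, 79.2 and 476 FPKM in WT 1, 2 and 3. Among the defining Sertoli genes, Amh was at 1.17 FPKM or less and Fshr at 1.42 FPKM or less in every library. Sox9 was at 22.3 to 35.6 FPKM in cKO and 5.10 to 20.2 FPKM in WT libraries. Gata4 and Kitl did not follow the sum. Gata4 was highest in WT 1 (63.1 FPKM) and lowest in WT 3 (29.6 FPKM). Kitl was highest in WT 2 (57.4 FPKM) and lowest in cKO 1 (18.4 FPKM). Of the 13 Sertoli markers tested, 5 were highest in cKO 3 and 5 in WT 3. The summed level of 11 macrophage and leukocyte markers was 145 to 260 FPKM in cKO libraries and 1121, 900 and 216 FPKM in WT 1, 2 and 3, and that of 5 peritubular myoid markers was 654 to 1194 FPKM in cKO and 2924, 2294 and 487 FPKM in WT. Acta2 was most of the myoid sum, at 2853, 2240 and 432 FPKM in WT 1, 2 and 3. Of the 5 myoid markers 3 were highest in cKO 3 and 2 in WT 1. Lyz2 was most of the macrophage sum in WT 1 and 2, at 648 and 577 FPKM. Of the 9 macrophage markers tested, 6 were highest in WT 1, 2 in WT 2 and 1 in cKO 2. In such bulk samples, fewer cells of a type and less RNA per cell cannot be told apart.

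The starts of several of these genes carry heat shock elements, which are shown here because the inducible members are known as targets of heat shock factor 1. Promoter windows of 300 bases, 250 before and 50 after the start site, were available for 7 of the 10 genes (10 windows, from RefSeq on GRCm38.p6). A pair of adjoining blocks was searched as GAANNTTC or TTCNNGAA, where N is any base, and a run of 3 blocks as GAA, TTC, GAA or TTC, GAA, TTC with NN between neighbours. The search covered both strands, and each run of 3 blocks contains the pairs as well. The pair was in 7 of the 10 windows, against 15.1% of all 32851 windows of that length, and the run of 3 blocks was in 4 of 10, against 0.603%. By gene these were 6 and 3 of 7. The windows are not independent, since those of Hsph1 overlap and share their run, Hspd1 and Hspe1 share theirs, and Hspa1a and Hspa1b are near-identical. The sequences are written 5′ to 3′ on the strand of the gene, with the matching blocks in capitals. They run from 150 bases before the start site up to it for Hspa1a (chr17:34972157-34972306, minus strand), Hspa1b (chr17:34959239-34959388, minus strand) and Hspb1 (chr5:135887769-135887918, plus strand).
Hspa1a: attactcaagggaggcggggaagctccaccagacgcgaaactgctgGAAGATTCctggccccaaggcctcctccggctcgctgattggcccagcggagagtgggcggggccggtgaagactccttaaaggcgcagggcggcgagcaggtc
Hspa1b: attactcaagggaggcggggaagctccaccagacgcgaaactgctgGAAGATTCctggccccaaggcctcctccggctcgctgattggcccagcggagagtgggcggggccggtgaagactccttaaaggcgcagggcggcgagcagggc
Hspb1: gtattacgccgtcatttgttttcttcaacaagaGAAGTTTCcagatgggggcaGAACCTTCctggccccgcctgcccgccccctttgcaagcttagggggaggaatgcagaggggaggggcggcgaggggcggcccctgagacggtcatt
The next stretches are the 30 bases around the longest run of blocks of Hspe1 (chr1:55088053-55088082, plus strand) and of Hsph1 (chr5:149636287-149636316, minus strand).
Hspe1: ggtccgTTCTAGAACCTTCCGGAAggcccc
Hsph1: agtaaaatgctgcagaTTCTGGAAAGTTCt
The Hspe1 stretch lies before the start site of Hspe1 and, read on the minus strand, before 1 of the 2 start sites of Hspd1. All of its 30 bases are annotated as exonic. In Hsph1 the run lies just after the start site used here. The 2 windows of Dnajb1 held no match, which says only that these letters are not there. Hspa1a and Hspa1b differed at 4 of 300 positions (C44T, T47C, T249G and C276T, with the Hspa1a base first and positions counted from the 5′ end of the window), and the block GAAGATTC was in both.

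No difference of the 10 genes between genotypes passed the test against the spread of the libraries. The count past the threshold was 0 of 10 (limma, adjusted p under 0.05), against a background of 0.0163% of the genes tested, which was 2 of 12284 genes. At an unadjusted p under 0.05 there were 0 of 10 members, against 6.81% of all genes. The mean log2 level was higher in cKO for 8 of 10 members, against 59.8% of all genes tested, and the median log2 difference was 0.15 against 0.08 for all genes. That count was 6 of 10 with median-ratio scaling and 7 of 10 with quantile normalization. The smallest adjusted p among the members was 0.755, for Dnajb1. Groups did not overlap for 1 of 10 members, again Dnajb1, against 11.3% of all genes. There all cKO values lay above all WT values, as in 6.28% of all genes, while 0 members had all cKO values below, as 5.01% of all genes did.

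**Figure D1:**
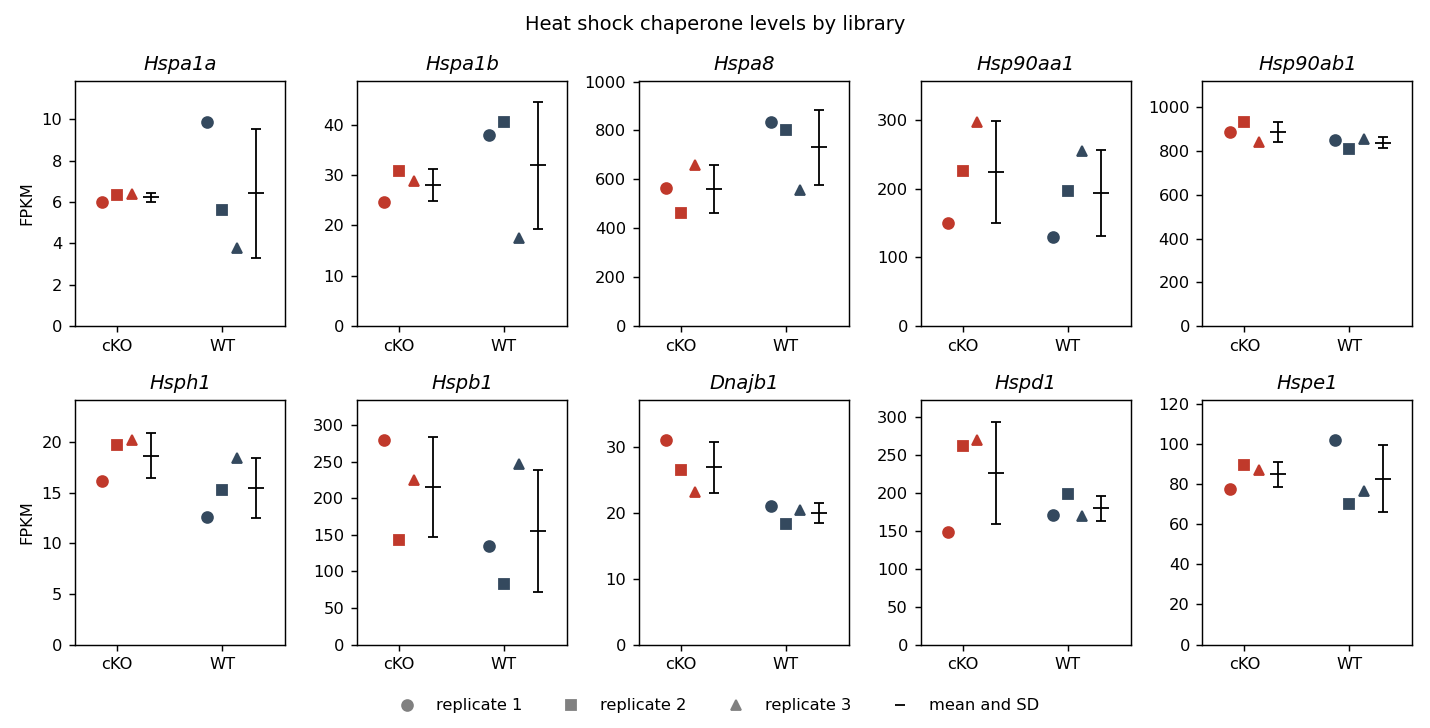
Level of each chaperone gene in FPKM (vertical axis, from 0) in the 3 libraries labelled cKO (red, left) and the 3 WT libraries (dark, right), with symbols for the replicate number and bars for the mean and SD. Only the panel of Dnajb1 has all cKO points above all WT points.

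Hspa1a and Hspa1b encode the inducible cytosolic HSP70 and are near-identical neighbours. Hspa1a (ENSMUSG00000091971) was at 5.98, 6.32 and 6.36 FPKM in cKO 1, 2 and 3, and at 9.87, 5.6 and 3.78 FPKM in WT 1, 2 and 3. The WT libraries lay on both sides of the tightly grouped cKO libraries, so the means were close, at 6.22 ± 0.208 FPKM in cKO and 6.42 ± 3.12 FPKM in WT (SD, n = 3 each). Hspa1b (ENSMUSG00000090877) was at 24.6, 30.9 and 28.8 FPKM in cKO and at 37.9, 40.6 and 17.5 FPKM in WT. Here WT 1 and 2 lay above every cKO library and WT 3 lay below every one. The log2 differences were 0.04 for Hspa1a (95% interval -0.69 to 0.78, limma adjusted p = 0.981) and -0.10 for Hspa1b (-0.86 to 0.67, adjusted p = 0.966).

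The pair cannot be fully separated by sequence, since their coding sequences are identical at 99.4% of 1926 aligned positions, with an unbroken identical run of 638 bases. Hspa1a rested on 344, 315 and 379 fragments in cKO and on 549, 324 and 228 fragments in WT libraries. In Hspa1b the numbers were 1339, 1456 and 1620 in cKO and 1991, 2217 and 994 in WT. The Hspa1a share of these fragments was 20.4%, 17.8% and 19.0% in cKO and 21.6%, 12.8% and 18.7% in WT libraries, so Hspa1b held most of the counted fragments in every library. No source used here says how fragments matching both genes were counted. If they were left out, the sum of the pair is too low as well. Exact Poisson 95% intervals, which cover counting error only, ran for Hspa1a from 504 to 597 fragments in WT 1 and from 199 to 260 in WT 3. Part of Hspa1a, 564 of its 2967 exonic bases, also overlaps Gm20481 on the opposite strand, and fragments there cannot be assigned without a stated strand.

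Summed over both genes, the inducible HSP70 was at 30.6, 37.3 and 35.1 FPKM in cKO and at 47.8, 46.2 and 21.2 FPKM in WT libraries. All 3 cKO sums lay inside the WT range. The difference of the summed level was -0.08 on the log2(FPKM + 1) scale, with an exact two-sided permutation p = 1, where 0.1 is the smallest that 3 against 3 can give. Without WT 3 it was -0.44, with both remaining WT sums above all cKO sums (exact p = 0.2, the smallest possible with 5 libraries). In that setting the groups did not overlap, in either direction, for 41.3% of all genes tested. The 5 genes nearest to the summed pair in their centred log2 profile over the 6 libraries were Smim11, Lysmd2, Nop2, Ctbp1 and Hoxc6. Their root mean square differences from it were 0.0621 to 0.0699 log2 units, where the median of the 7035 genes ranked was 0.489. The members themselves were left out of that ranking, as were genes of low mean level, predicted genes and pseudogenes. So no member could be among the 5, and none of the 5 is in the other chaperone lists used here.

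Hspa8 encodes the constitutive HSC70, the HSP70 of unstressed cells, which also uncoats clathrin vesicles. It was at 564, 463 and 659.7 FPKM in cKO and at 835, 800.3 and 556 FPKM in WT libraries. WT 3 lay within the cKO range, and WT 1 and 2 lay above it. The means were 562 ± 98.1 FPKM in cKO and 731 ± 152 FPKM in WT (SD, n = 3 each), a log2 difference of -0.37 (95% interval -0.97 to 0.23, limma adjusted p = 0.829). Of the 4301 exonic bases of Hspa8, 86, 86 and 90 also overlap Snord14c, Snord14d and Snord14e on the same strand. How fragments there were counted is not stated. WT 1 and 2, the libraries with the highest Hspa8 and Hspa1b, also had the highest sums of the macrophage and myoid markers given above. The myoid sum was mostly Acta2, and the myoid markers Myh11, Cnn1 and Des were instead highest in cKO 3. Lyz2 was most of the macrophage sum in WT 1 and 2, and Cd14 was highest in cKO 2. The part of macrophages and myoid cells in the Hspa8 and Hspa1b levels was not tested. Of the 11 macrophage markers 2 were under 1 FPKM in every library and none was at 0 throughout, and no myoid marker was under 1 FPKM throughout.

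Hsph1 and Dnajb1 encode partners of HSP70, the exchange factor HSP110 and the J-domain protein HSP40. Dnajb1 was at 31.0, 26.5 and 23.2 FPKM in cKO and at 21.1, 18.3 and 20.5 FPKM in WT libraries. All cKO values lay above all WT values, by a small margin between cKO 3 and WT 1. The means were 26.9 ± 3.92 FPKM in cKO and 20.0 ± 1.47 FPKM in WT, a log2 difference of 0.40 (95% interval -0.05 to 0.86, unadjusted p = 0.0744, limma adjusted p = 0.755). Hsph1 was at 16.2, 19.7 and 20.2 FPKM in cKO and at 12.6, 15.3 and 18.5 FPKM in WT libraries. WT 3 fell inside the cKO range and the other WT libraries below it, with a log2 difference of 0.27 (-0.24 to 0.77, adjusted p = 0.856).

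Hsp90aa1 and Hsp90ab1 encode the inducible and the constitutive cytosolic HSP90. Hsp90ab1 was the steadiest of the 10 genes, at 887, 934 and 843 FPKM in cKO and at 850.1, 810.0 and 855 FPKM in WT libraries. Its highest library was 1.15 times its lowest, and the log2 difference was 0.08 (95% interval -0.38 to 0.55, limma adjusted p = 0.952). Hsp90aa1 was at 149.8, 225 and 297 FPKM in cKO and at 129, 197 and 254 FPKM in WT libraries. Each genotype spanned about the same range, and the means were 224 ± 73.5 FPKM in cKO and 193 ± 62.8 FPKM in WT (log2 difference 0.21, -0.59 to 1.01, adjusted p = 0.925).

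Hspb1 encodes HSP27 (HSP25 in mouse), a small heat shock protein that also binds actin. Its level was 279, 143 and 225 FPKM in cKO and 135, 83.3 and 247 FPKM in WT libraries, and it was the most variable member, with a 3.34-fold gap between the highest and lowest library. WT 3 again lay inside the cKO range, whereas WT 1 and 2 lay below it. The means were 215 ± 68.4 FPKM in cKO and 155 ± 83.7 FPKM in WT, a log2 difference of 0.56 (95% interval -0.44 to 1.55, limma adjusted p = 0.847). Hsp25-ps1, a pseudogene named after the same protein, was at 1.39, 0.851 and 1.11 FPKM in cKO and at 2.54, 2.52 and 9.45 FPKM in WT libraries. All cKO values of this copy lay below all WT values, as in 5.01% of all genes (log2 difference -1.27, limma adjusted p = 0.650). The sign was opposite to that at Hspb1 itself.

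Hspd1 and Hspe1 encode the mitochondrial chaperonin HSP60 and its lid HSP10 and lie head to head. Hspd1 was at 149, 262 and 269.7 FPKM in cKO and at 171, 199 and 170.0 FPKM in WT libraries. Its lowest and its highest library were both cKO, and the log2 difference was 0.29 (95% interval -0.35 to 0.92, limma adjusted p = 0.883). Hspe1 was at 77.7, 89.8 and 87.4 FPKM in cKO and at 102, 70.1 and 76.6 FPKM in WT libraries. The groups overlapped, with means of 85.0 ± 6.38 FPKM in cKO and 83.0 ± 17.1 FPKM in WT (log2 difference 0.05, -0.44 to 0.54, adjusted p = 0.971). In the GENCODE annotation used for lengths, the genes share 112 exonic bases on opposite strands, and fragments there cannot be assigned without a stated strand. The named copy Hspd1-ps3 was at 4.97 to 7.89 FPKM in cKO and 6.44 to 12.5 FPKM in WT libraries, while Hspd1-ps4 and Hspe1-ps4 were under 1 FPKM throughout.

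**Figure D2:**
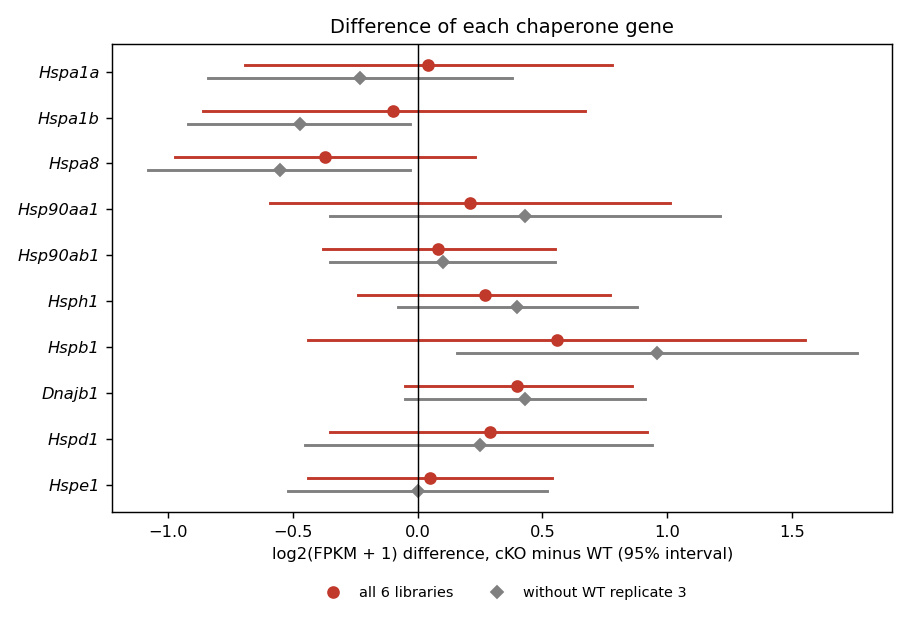
Difference of each chaperone gene on the log2(FPKM + 1) scale, cKO minus WT (horizontal axis), with its 95% interval, for all 6 libraries (red circles) and without WT 3 (grey diamonds). With all 6 libraries every interval crosses 0, and without WT 3 those of Hspa1b, Hspa8 and Hspb1 do not.

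Leaving out WT 3 widened several differences without bringing a member past the threshold. The log2 difference was then -0.47 for Hspa1b, -0.55 for Hspa8 and 0.96 for Hspb1 (limma adjusted p = 0.204, 0.204 and 0.161), and these were the 3 members at an unadjusted p under 0.05, against 22.3% of all genes. The count past the threshold stayed at 0 of 10, against 3.89% (478 genes) of all genes in that setting, 2.47% higher and 1.42% lower in cKO. Groups no longer overlapped for 5 of 10 members, with cKO above WT for Hsph1, Hspb1 and Dnajb1 and below WT for Hspa1b and Hspa8, against 41.3% of all genes. Among the members WT 3 lay within the cKO range for 6 of 10, and WT 1 and WT 2 for 2 of 10 each. Over all genes tested these shares were 41.5% for WT 3, 27.8% for WT 1 and 39.2% for WT 2.

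**Figure D3:**
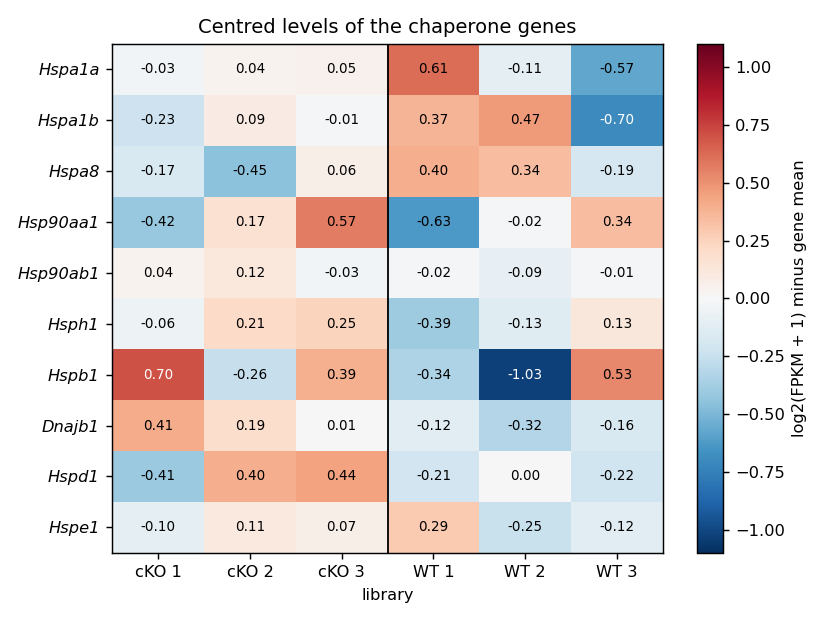
Level of each chaperone gene by library as log2(FPKM + 1) minus the mean of that gene over the 6 libraries (colour and printed value), with the cKO libraries left of the line and the WT libraries right of it. Hspa1b runs from 0.47 in WT 2 to -0.70 in WT 3, and Hsp90ab1 stays between -0.09 and 0.12.

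No library was highest or lowest for all members. WT 1 had the highest value of Hspa1a, Hspa8 and Hspe1 and the lowest of Hsp90aa1 and Hsph1. WT 3 had the lowest value of Hspa1a and Hspa1b and the highest of no member, although 25% of all genes tested were highest there. The library cKO 3 was highest for Hsp90aa1, Hsph1 and Hspd1 and lowest for none. By mean FPKM over the 6 libraries, which is a level per length, the order was Hsp90ab1 (863), Hspa8 (646), Hsp90aa1 (209), Hspd1 (203), Hspb1 (185), Hspe1 (84.0), Hspa1b (30), Dnajb1 (23.4), Hsph1 (17.1) and Hspa1a (6.32). The ranges over libraries separated Hspa8 from Hsp90aa1, Hspe1 from Hspa1b and Hsph1 from Hspa1a, and overlapped between all other neighbours in that order. The constitutive cytosolic genes thus stood highest, and the inducible HSP70 pair and its partners lowest. For the pair this level may be too low, since it is not stated how fragments matching both genes were counted.

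Ratios between related members, which are not changed by a single scaling factor per library, overlapped between genotypes. Hsp90aa1 was at 0.169, 0.240 and 0.352 times Hsp90ab1 in cKO and 0.152, 0.243 and 0.298 times in WT libraries. The log2 ratio differed by 0.13 between the genotypes (exact two-sided permutation p = 0.8). The inducible pair over Hspa8 was 0.0543, 0.0804 and 0.0532 in cKO and 0.0572, 0.0577 and 0.0382 in WT libraries (difference of log2 ratios 0.30, exact p = 0.6). Hspd1 over Hspe1 was 1.92, 2.91 and 3.08 in cKO and 1.67, 2.84 and 2.22 in WT libraries (difference 0.24, exact p = 0.5). In these 3 tests 0.1 was the smallest p the design allows.

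**Figure D4:**
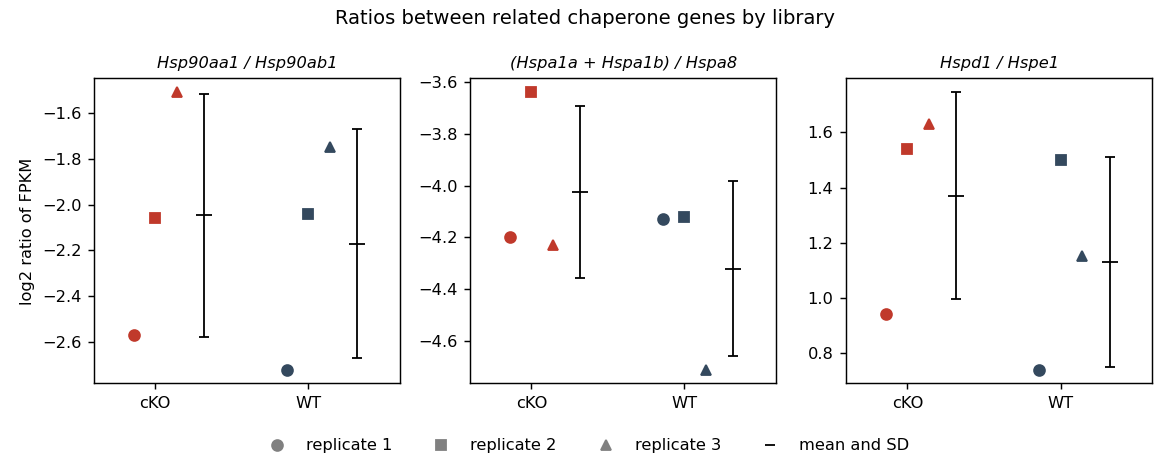
Log2 ratio of FPKM values (vertical axis, not from 0) for 3 gene combinations in the cKO (red, left) and WT (dark, right) libraries, with symbols for the replicate number and bars for the mean and SD. The points of both genotypes overlap in every panel, for example at -2.57 to -1.51 in cKO and -2.72 to -1.75 in WT for Hsp90aa1 over Hsp90ab1.

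Other genes of the heat shock system gave the same count of 0 called. Hsf1, the main stress-responsive heat shock factor, was at 7.25, 7.48 and 6.80 FPKM in cKO and at 9.94, 6.89 and 4.11 FPKM in WT libraries (limma adjusted p = 0.960). Its library order within WT was that of Hspa1a, with WT 1 highest and WT 3 lowest, but not that of Hspa1b, which was highest in WT 2. Smim11, Lysmd2, Nop2, Ctbp1 and Hoxc6, named above and picked for their nearness to the summed pair, had the same order within WT. A link of Hsf1 to Hspa1a was not tested. Hsf2 was at 1.65 to 2.16 FPKM in cKO and 0.888 to 3.10 FPKM in WT, and Hsbp1, which binds heat shock factor 1, at 43.0 to 53.2 FPKM in cKO and 51.2 to 64.8 FPKM in WT (adjusted p = 0.935 and 0.865). Of 15 other known targets of heat shock factor 1, 0 passed in either direction and 12 had a higher mean in cKO, against 59.8% of all genes. Their median log2 difference was 0.14, against 0.08 for all genes. In 1 of the 15 all cKO values lay below all WT values, as in 5.01% of all genes, and in 0 above, against 6.28%.

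Co-chaperones of HSP90 and HSP70 had higher means in cKO for 12 of 14 and 14 of 19 tested genes, against 59.8% of all genes. Their median log2 differences were 0.20 and 0.17, against 0.08 for all genes, with 0 genes called in each list. The lists are not independent of the heat shock factor 1 targets above. Ahsa1, Stip1, Fkbp4, Chordc1 and Cacybp of the HSP90 list and Bag3, Dnaja1, Dnajb4 and Hspa4l of the HSP70 list are in both. Ahsa1, the activator of the HSP90 ATPase, was at 27.2, 31.9 and 29.9 FPKM in cKO and at 27.6, 20.6 and 14.6 FPKM in WT libraries (limma adjusted p = 0.755). Stip1, the adaptor that links HSP70 to HSP90, averaged 156 ± 26.0 FPKM in cKO and 114 ± 29.0 FPKM in WT (adjusted p = 0.770). Fkbp5, a glucocorticoid-inducible co-chaperone, averaged 29.0 ± 8.15 FPKM in cKO and 19.0 ± 5.41 FPKM in WT libraries (adjusted p = 0.755). Among J-domain genes, Dnaja4 was at 2.29 to 3.14 FPKM in cKO and 0.788 to 1.91 FPKM in WT, and Dnajc7 at 7.99 to 11.1 FPKM in cKO and 6.22 to 7.08 FPKM in WT. In both the groups did not overlap, and neither passed (limma adjusted p = 0.678 and 0.755). Of the 19 HSP70 partners tested, 3 had all cKO values above all WT values and 1, Bag2, had all cKO values below. Over all genes tested these shares were 6.28% and 5.01%.

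Prefoldin, which hands unfolded actin and tubulin to the CCT chaperonin, had a median log2 difference of 0.46 over 6 genes, with 0 called and 3 at an unadjusted p under 0.05, against 6.81% of all genes. Without WT 3 the median was 0.25. Pfdn6 was at 28.4, 28.1 and 27.5 FPKM in cKO and at 21.4, 9.54 and 7.09 FPKM in WT libraries (limma adjusted p = 0.596). Pfdn2 was at 17.7, 19.7 and 16.4 FPKM in cKO and at 12.8, 6.25 and 7.93 FPKM in WT (adjusted p = 0.563). In both, all cKO values lay above all WT values. That held for 2 of the 6 prefoldin genes, against 6.28% of all genes, and 0 had all cKO values below, against 5.01%. Pfdn1 was at 34.2 to 36.2 FPKM in cKO and at 34.4, 16.9 and 14.5 FPKM in WT 1, 2 and 3 (adjusted p = 0.727). The 8 CCT genes had a median of -0.02, with Cct3 at 66.7 ± 3.45 FPKM in cKO and 76.5 ± 14.7 FPKM in WT (adjusted p = 0.899), and 0 called.

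Other small heat shock proteins had lower means in cKO for 4 of 6 tested genes, whereas 59.8% of all genes had a higher mean. Their median log2 difference was -0.49, with 0 called. Cryab, which encodes alpha-B crystallin, was the most abundant of them, at 443, 332 and 263 FPKM in cKO and at 676, 407 and 368 FPKM in WT libraries (limma adjusted p = 0.824). Hspb6, a small heat shock protein of muscle, was at 11.5, 5.10 and 8.51 FPKM in cKO and at 21.3, 16.7 and 7.51 FPKM in WT libraries (adjusted p = 0.783). WT 1 and 2 lay above all other libraries for Hspb6, as they did for the summed myoid markers, and the part of myoid cells in this level was not tested. Mitochondrial chaperones and proteases other than Hspd1 and Hspe1 had a median of -0.03, against 0.08 for all genes, and 0 of 9 called. The mean was higher in cKO for 4 and lower for 5 of them. In 1 of the 9 all cKO values lay below all WT values, as in 5.01% of all genes, and in 0 above, against 6.28%. Lonp1, a protease of the mitochondrial matrix and 1 of those with a higher mean, was at 80.9, 69.0 and 58.4 FPKM in cKO. In WT libraries it was at 37.5, 31.2 and 89.0 FPKM (limma adjusted p = 0.833).

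Chaperones of the endoplasmic reticulum were mostly highest in WT 3, which was the highest library for 0 of the 10 members. WT 3 was the highest library for 11 of 12 of these genes. Hspa5, which encodes the HSP70 of that compartment, was at 449, 390.0 and 376 FPKM in cKO and at 209.9, 340.2 and 1052 FPKM in WT libraries, and Dnajb9, a J-domain protein of the same compartment, was at 30, 23.8 and 21.7 FPKM in cKO and at 15, 22.0 and 69.1 FPKM in WT. Both, and Hsp90b1 in the plot of further chaperones, were named after their values were seen. The median log2 difference of the list was -0.10 with 0 called (limma adjusted p = 0.984 for Hspa5 and 0.958 for Dnajb9). Without WT 3 the median was 0.19, and the log2 difference was 0.59 for Hspa5 and 0.43 for Dnajb9, against -0.06 and -0.19 with all libraries (adjusted p without WT 3 = 0.226 and 0.340). Whether the cytosolic and reticulum chaperones differ in this respect was not tested.

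**Figure D5:**
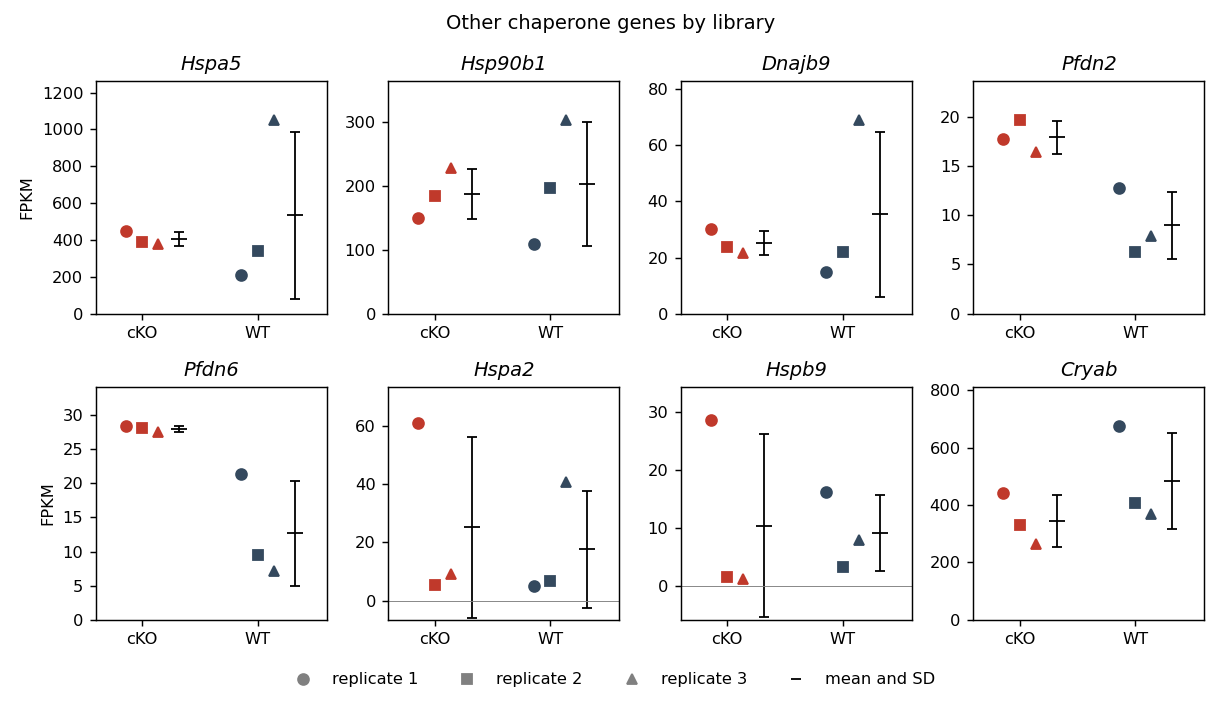
Level in FPKM (vertical axis) of 8 further chaperone genes in the cKO (red, left) and WT (dark, right) libraries, with symbols for the replicate number and bars for the mean and SD, some of which extend below 0. Hspa5 and Dnajb9 peak in WT 3, Hspa2 is high in cKO 1 and WT 3 alone, and Pfdn2 and Pfdn6 have all cKO points above all WT points.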

How the data were processed

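The data are RNA-seq libraries of primary mouse Sertoli cells, 3 labelled cKO and 3 WT; as no label says that each came from its own animals, p-values measure the spread between libraries, which may be partly technical. The deposited files hold 1 FPKM value per gene. Per the submitters' processing notes, the authors used FastQC, HISAT2 2.1.0 and the build mm8. No source used here names the counter, the gene models or whether strand was used. The unit was read from the values: times exonic length (GENCODE M21, GRCm38), 99.0% to 99.4% of single-exon values of up to 10 fragments were whole multiples of the library's step, within 0.02 times their fragment number. Gene symbols matched 28932 of 29275 identifiers. A count test was not run on FPKM, and on the log2(FPKM + 1) scale folds of low genes are understated.

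The 12284 genes that reached 1 FPKM in 3 or more libraries were fitted with limma 3.58.1 (R 4.3.3, eBayes with trend, genotype only, two-sided), with Benjamini-Hochberg adjustment over all of them and a threshold of 0.05. Sums and ratios were tested by exact permutation (scipy 1.17.1, Python 3.11.15). The members and lists were chosen with earlier results of these data known. Named genes were the members, Arhgef15, named copies, up to 3 genes of smallest p per list, and the 5 nearest profiles; 1 gene that the rule names is not reported here. The alternatives were other filters, pseudocounts, scalings and threshold, a fit with a replicate block, and the omission of each library in turn.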

Additional observations from a re-analysis of the deposited data

How the results depend on the processing

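No alternative brought a member past the threshold: the count of members called was 0 in all settings run, including an adjusted p threshold of 0.1. The count over all genes was 2, and it was 0 without the filter on low values and 0 with the replicate block, and 0 to 478 with 1 library left out (4 without WT 1, 478 without WT 3, 0 without any other). Directions of small differences were not stable. For Hspa1a the log2 difference turned to -0.02 with median-ratio scaling, -0.03 with quantile normalization and -0.23 without WT 3. Hspa1b turned to 0.07 without WT 1 and 0.11 without WT 2, Hsp90aa1 to -0.02 without cKO 3 and -0.06 without WT 1, and Hspe1 to -0.02 with median-ratio scaling and -0.06 without WT 2. With 1 library left out, Hspa1a ranged from -0.23 to 0.36, Hspa1b from -0.47 to 0.11, Hsp90aa1 from -0.06 to 0.47, Hspe1 from -0.06 to 0.21, the summed pair from -0.44 to 0.12 and the Hsp90aa1 ratio from -0.15 to 0.39. The cause was not tested. Hspa8, Hsp90ab1, Hsph1, Hspb1, Dnajb1 and Hspd1 kept their sign in the 13 alternatives fitted for each, but Hspb1 ranged from 0.18 without WT 2 to 0.96 without WT 3, Hspd1 from 0.14 without cKO 3 to 0.56 without cKO 1, the Hspd1 to Hspe1 ratio from 0.04 to 0.45 and the ratio of the pair to Hspa8 from 0.10 to 0.40. The median of all genes moved from 0.08 to 0.02 with median-ratio scaling, and members with a higher mean in cKO from 8 to 6. The paired fit with the replicate block called 0 members, with a smallest limma adjusted p of 0.658. Same-numbered libraries share only a number: across genes their deviations from the group means correlated at 0.138, 0.0322 and -0.206. A strict filter leaves out Arhgef15, so no value was had there. With 3 libraries per genotype, the intervals given with the members show the sizes of difference that these data leave possible.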

Other observations

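The germ cell heat shock proteins varied widely between libraries of the same genotype. Hspa2, the HSP70 of meiotic spermatocytes, was at 61.2, 5.32 and 9.07 FPKM in cKO 1, 2 and 3, and at 5.06, 6.85 and 40.9 FPKM in WT 1, 2 and 3. It was thus high in cKO 1 and WT 3, which were also the highest libraries for Hspb1 (279 and 247 FPKM). Hspb1 did not share the gap to the other libraries, since it was at 225 FPKM in cKO 3, where Hspa2 was at 9.07 FPKM. The summed level of 9 spermatogonia and spermatocyte markers was 205, 97.5 and 119 FPKM in cKO and 42.2, 30.1 and 279.6 FPKM in WT libraries, so cKO 1 and WT 3 were highest there too. Uchl1 was most of this sum, at 138, 94.0 and 111 FPKM in cKO and 40.5, 24.9 and 174 FPKM in WT. The meiotic marker Sycp3 was at 12.3, 0.471 and 0.787 FPKM in cKO and 0.253, 0.892 and 23.7 FPKM in WT. Hspb9, a small heat shock protein of the testis, was at 28.5, 1.48 and 1.23 FPKM in cKO and at 16.1, 3.32 and 7.93 FPKM in WT, and Dnajb3 was at 9.96, 1.87 and 1.28 FPKM in cKO and 3.10, 3.12 and 10.7 FPKM in WT. The spermatid markers summed to 259.8, 54.8 and 14.7 FPKM in cKO and to 138, 59.7 and 158 FPKM in WT libraries. None of the 3 tested germ cell heat shock genes passed (limma adjusted p = 0.907 for Dnajb3, 0.918 for Hspb9 and 0.962 for Hspa2). The part of remaining germ cells in these levels was not tested.

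Immediate early genes are switched on by many cell stresses. Of 15 genes 0 were called, and 10 had a higher and 5 a lower mean in cKO, against 59.8% higher over all genes. The median log2 difference of the 15 genes was 0.39. In 4 of them all cKO values lay above all WT values, against 6.28% of all genes. The 3 genes of smallest p were all higher in cKO. Fosl1 was at 26.9, 23.7 and 13.8 FPKM in cKO and at 10.4, 5.37 and 5.18 FPKM in WT libraries (limma adjusted p = 0.545). Junb was at 195, 191 and 109 FPKM in cKO and at 105, 66.4 and 72.0 FPKM in WT, and Jun at 41.7, 66.8 and 39.3 FPKM in cKO and 24.3, 23.7 and 36.4 FPKM in WT (adjusted p = 0.607 and 0.655).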
